A study of Saccharomyces cerevisiae with 66 samples.

Results

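The 10 genes described here govern entry into meiosis and commitment to it in budding yeast (Saccharomyces cerevisiae): IME1, IME2, RME1, NDT80, UME6, SUM1, RIM11, RIM15, RIM4 and RIM101. They were taken by name from 6171 gene lines of a table of read counts, and all 10 were matched by locus tag and gene ID. The table covers 66 poly(A)-selected, strand-specific RNA-seq libraries from 11 diploid strains in sporulation medium, in 22 groups of 3. In the targeted strains, RNA decay or RNA-binding factors carry an auxin degron, a tag by which indole-3-acetic acid (IAA) leads a protein to its destruction through the plant TIR ligase. The IAA groups are POP2, CAF40, NOT5, LSM1, PAT1, DCP2, XRN1, RAT1, RRP6 and PAB1, and each is set against DMSO libraries of its own strain. The control strain, WT in the titles, has the TIR ligase and no tagged factor, and likewise has IAA and DMSO groups. The titles give 4 h, and by the protocol copper sulphate (50 µM) was added with the IAA (500 µM) after 3 h. That protocol text stands beside every sample, DMSO included. All groups are MATa/alpha diploids with the alleles trp1::hisG, leu2::hisG and his3:p550, and are also ura3, lys2 and ho::LYS2; 9 tagged genes are written in the genotype labels, the tag of CAF40 being absent from them. No label says whether replicates came from separate cultures or clones, so the spread between them may be partly technical.

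As background, IME1 encodes the activator that starts the meiotic program when a diploid starves. It acts with the DNA-binding protein Ume6, which otherwise holds early meiotic genes silent with the Sin3-Rpd3 histone deacetylase. The kinases Rim11 and Rim15 favour the joining of Ime1 and Ume6, while Rme1 and the alkaline-response factor Rim101 act further upstream, Rme1 as a repressor of IME1. Ime2, a meiotic kinase, and Rim4, an RNA-binding protein that holds back translation, lead on to Ndt80, the activator of middle genes whose rise commits cells to the divisions. Sum1 represses the middle genes, NDT80 among them, until then.

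A pair of promoters is shown because NDT80 was the most variable of the 10 genes and UME6 was the only one with the core letters of the Ume6 site near its start. Each run covers 250 bases before and 50 bases from the start codon on, 5′ to 3′ on the strand of the gene, read from the RefSeq R64 assembly of strain S288C, which may differ from these strains. Capitals mark CACAAA, the core of the middle element bound by Ndt80 and Sum1, or GGCGGC, the core of the URS1 site of Ume6, on either strand.
NDT80, chrVIII:356311-356610, plus strand: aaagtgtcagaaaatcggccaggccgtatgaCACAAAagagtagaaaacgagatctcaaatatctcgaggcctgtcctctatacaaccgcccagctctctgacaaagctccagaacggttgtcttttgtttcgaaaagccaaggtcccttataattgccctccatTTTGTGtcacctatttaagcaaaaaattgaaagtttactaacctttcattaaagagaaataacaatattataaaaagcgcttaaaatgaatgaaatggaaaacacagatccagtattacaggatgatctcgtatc
UME6, chrIV:867473-867772, minus strand: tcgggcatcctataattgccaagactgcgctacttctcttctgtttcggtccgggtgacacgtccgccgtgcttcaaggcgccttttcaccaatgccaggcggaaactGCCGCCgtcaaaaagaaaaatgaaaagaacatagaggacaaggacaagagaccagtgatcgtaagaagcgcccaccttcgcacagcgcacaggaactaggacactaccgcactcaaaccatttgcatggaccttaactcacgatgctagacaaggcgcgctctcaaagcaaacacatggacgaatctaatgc
The NDT80 window held the middle element core starting 219 bases before the start codon and, on the other strand, 85 bases before it. IME1 and SUM1 held the core too, against 18.8% of 6001 promoter windows of that length. The UME6 window held the URS1 core 142 bases before the start, a match found in 5.13% of windows. GCCAAG, the core of the Rim101 site, lay in the windows of RME1, NDT80 and UME6 (10.3% of windows), AGGGG, the stress element, in those of IME2, RME1 and SUM1 (21.6%), the RME1 and SUM1 matches to these falling after the start codon, inside coding sequence, and CCTCAA, the Rme1 core, in none of the 10 (13.3%). The motifs do not overlap one another in the NDT80 and UME6 windows, and a match of letters is not a binding site.

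Depth was 12.6 to 28.3 M counts per library, so that 3 counts stood for 0.106 to 0.238 CPM, the depth-scaled read count used throughout. The scaling factors by trimmed means (TMM) were 0.63 to 0.814 in the 6 PAB1 libraries and 0.915 to 1.17 elsewhere, so PAB1 values depend on scaling more than others. CUP1-1, a copper metallothionein gene, was higher in IAA than in DMSO in all 11 strains, with limma log2 differences of 5.59 in XRN1 to 8.50 in POP2. CUP1-1 thus moves with IAA in every strain, WT included, and the part of copper in the member values was not tested. In DMSO, CUP1-1 had 29.1, 82.6 and 7.34 CPM in RAT1 and 6.91, 6.44 and 176 CPM in XRN1. CTR3, a copper transporter gene, had 475, 147 and 2517 CPM in RAT1 and 2379, 1841 and 116 CPM in XRN1. RAT1 DMSO replicates 1 and 2 and XRN1 DMSO replicate 3 therefore stand apart from the other DMSO libraries. Without these 3 libraries the same 15, 3 and 18 member calls described below were made, and values for RAT1 and XRN1 without them are given beside the results that they change. Of 15 haploid mating genes, which diploids repress, 14 had a line. Their summed level averaged 136 CPM in POP2 with IAA to 306 CPM in PAB1 with DMSO, and the pheromone genes MFA1 and MFA2 lay at 0 to 0.748 CPM in the WT libraries. In bulk RNA, fewer cells in a state and less RNA per cell cannot be told apart.

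Per kilobase of coding sequence, WT cells in DMSO held most IME1 (3170 CPM per kb), RIM4 (1916) and IME2 (1546). RIM11 (240), UME6 (142) and RIM101 (131 CPM per kb) came next, then SUM1 (58.2), NDT80 (57.9), RIM15 (38.3) and RME1 (14.8). All 10 passed the filter on low counts. NDT80 varied most, from 4.62 to 1012 CPM over the libraries, with a within-group SD of 0.98 on the log2 scale, against 0.12 for RIM101 and 0.35 for IME2, the extremes of the other 9 genes.

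IAA against DMSO called 15 of 110 member changes (10 genes in 11 strains) at an adjusted p under 0.05 by limma, where adjustment ran over 5828 genes. POP2 had 6 of 10 members called against 36.2% of all genes, LSM1 had 3 of 10 against 18.5%, PAB1 had 2 of 10 against 22.2% and CAF40 had 2 of 10 against 7.81%. RIM101 was the only member called in PAT1 (1.34% of genes) and in RRP6 (4.62%). No member was called by limma in NOT5 (10.2% of genes), XRN1 (8.85%), RAT1 (20%), DCP2 (1.8%) or WT (3.41%). At an unadjusted p under 0.05, 3 members differed in NOT5, 4 in XRN1, 2 in RAT1, 1 in DCP2 and 3 in WT. With only the groups compared in the fit, 7 of 110 were called, 6 of them among the 15. With replicate number as a block, 41 were called.

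**Figure D1:**
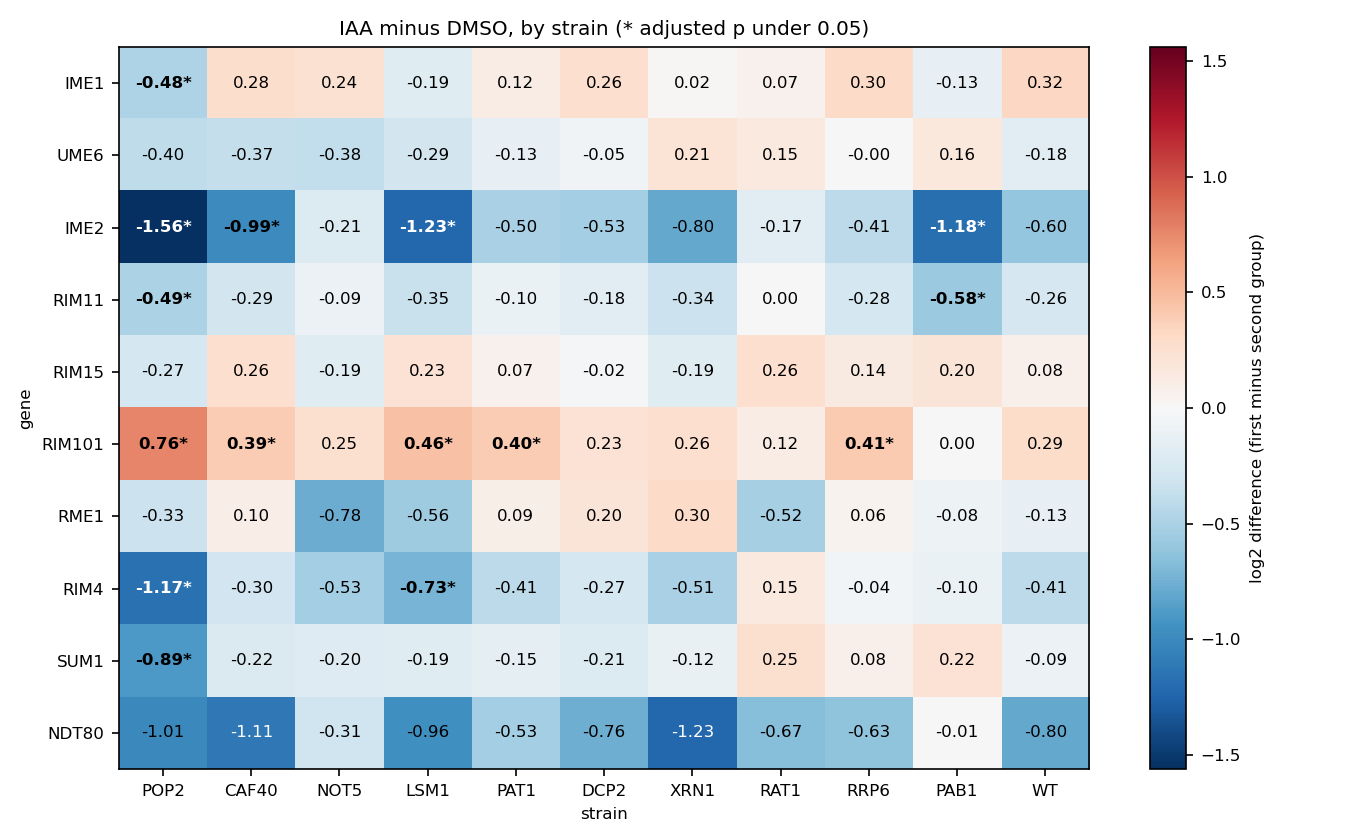
Log2 difference of IAA minus DMSO (colour and printed value) for the 10 genes in rows, with IME1 first and NDT80 last, and the 11 strains in columns, with WT last. Stars mark adjusted p under 0.05 by limma. IME2 and NDT80 are negative in all 11 columns (NDT80 at -0.01 in PAB1, which turns positive under 4 alternatives), RIM101 is 0.00 or above (PAB1 at -0.21 with total counts), and POP2 holds 6 of the 15 stars.

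IME1, the master activator, was called in POP2 alone of the 11 strains by limma, with less mRNA after IAA. POP2 had 2676, 1984 and 1986 CPM with IAA, against 3408, 2617 and 3180 CPM with DMSO. The groups touch, since the highest IAA library lies above the lowest DMSO library. The log2 difference was -0.48 (SE 0.15, limma adjusted p 0.00984). Without POP2 IAA replicate 2, POP2 IAA replicate 3 or POP2 DMSO replicate 1 the call was lost, with adjusted p of 0.0886, 0.104 and 0.0656, and with only those groups in the fit it was 0.0728. LSM1 (-0.19) and PAB1 (-0.13) were also negative without a call, and the other 8 strains were positive, up to 0.32 in WT, which held 4429, 3826 and 4607 CPM with IAA and 3922, 3358 and 3020 CPM with DMSO (adjusted p 0.288). IME1 stayed within 2.22-fold from its lowest group mean, 2215 CPM in POP2 with IAA, to its highest, 4917 CPM in PAB1 with DMSO, and all 21 neighbours in that order overlapped.

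RIM101, which encodes a zinc-finger repressor that acts in the alkaline response, was called higher with IAA in 5 strains. Its difference was positive in all others except PAB1, where it was 0.00. POP2 had 658, 682 and 669 CPM with IAA, against 425, 376 and 390 CPM with DMSO. These groups stand far apart, with a log2 difference of 0.76 (SE 0.11, limma adjusted p 6.02e-07). LSM1 had 405, 433 and 460 CPM with IAA and 331, 289 and 325 CPM with DMSO, a log2 difference of 0.46 (adjusted p 0.00147; 0.336 with only those groups fitted). RRP6 had 338, 340 and 349 CPM with IAA, against 250, 262 and 261 CPM with DMSO, a log2 difference of 0.41 (adjusted p 0.00508). In both strains every IAA library lay above every DMSO library. The CAF40 difference of 0.39 (adjusted p 0.014) was lost without CAF40 IAA replicate 2 or 3 or CAF40 DMSO replicate 3 (0.0602 to 0.112) and with only those groups fitted (0.151). The PAT1 difference of 0.40 (adjusted p 0.0344) was lost without IAA replicate 2 or 3, DMSO replicate 2 or 3, or POP2 IAA replicate 2 (0.0505 to 0.31), with total-count scaling (0.143) and with only those groups fitted (0.129).

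In WT, RIM101 stood at 301 CPM in each IAA library, against 242, 252 and 243 CPM with DMSO, a log2 difference of 0.29 (SE 0.10) that missed the threshold by limma (adjusted p 0.0818) and passed it in 4 fits that left out 1 library of another strain (0.0398 to 0.0499). Of 33 same-numbered pairs, 30 had more RIM101 with IAA, counting those of WT, CAF40 and POP2, whose numbers were not taken to pair the libraries. PAB1 differed from that run, at 342 ± 7.3 CPM with IAA and 341 ± 23.4 CPM with DMSO (SD, n = 3 each), and with total-count scaling its log2 difference turned to -0.21. In strains whose replicate numbers pair the libraries, the block added RIM101 calls in NOT5 (0.26, adjusted p 0.0485; 0.0567 without the libraries with copper genes apart) and XRN1 (0.27, adjusted p 0.0288).

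RME1, the repressor of IME1 that MATa/alpha diploids keep low, lay near 13 CPM in most groups. NOT5 stood lowest, with 7.48, 7.02 and 7.46 CPM with IAA, against 15.2, 10.3 and 12.8 CPM with DMSO. The groups did not overlap, the log2 difference was -0.78 (SE 0.27) and the limma adjusted p of 0.0531 missed the threshold. It was 0.00453 with the replicate block, which pairs the NOT5 libraries, and 0.0412 with total-count scaling. LSM1 held 14.7, 6.7 and 6.81 CPM with IAA and 13.6, 13.4 and 11.7 CPM with DMSO (log2 difference -0.56, adjusted p 0.118; with the block -0.49 and 0.0401). LSM1 IAA replicate 1 stands apart from its partners there and in several members below.

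UME6, whose protein is both anchor of the early-gene repressor and partner of Ime1, was not called between IAA and DMSO in any strain by limma (unadjusted p 0.0289 in POP2, its lowest of the 11). POP2 had 197, 192 and 165 CPM with IAA, against 259, 235 and 236 CPM with DMSO (log2 difference -0.40, adjusted p 0.0732). The 3 IAA libraries lay below the 3 DMSO libraries without passing the test. XRN1 held most UME6, with 432, 461 and 741 CPM with IAA and 349, 426 and 663 CPM with DMSO, and replicate 3 was the highest in both groups.

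RIM11 encodes a kinase of the glycogen synthase kinase family that phosphorylates Ime1 and Ume6. It fell in POP2 to 172, 155 and 156 CPM with IAA, against 229, 202 and 246 CPM with DMSO (log2 difference -0.49, SE 0.14, limma adjusted p 0.00535). It fell in PAB1 to 274, 183 and 183 CPM with IAA, against 337, 289 and 317 CPM with DMSO (log2 difference -0.58, SE 0.14, adjusted p 0.00168), a call lost with only those groups in the fit (0.163). The libraries did not overlap in either strain, and both calls held without any single library. With the block, RIM11 was also called in LSM1 (-0.37, adjusted p 0.0133) and XRN1 (-0.34, adjusted p 0.0327). LSM1 IAA replicate 1, at 249 CPM beside 135 and 143 CPM, lay above the DMSO libraries of 230, 227 and 190 CPM, and without it the difference was -0.61 (adjusted p 2.34e-04). Without that library LSM1 was also called for RME1 (-0.91, adjusted p 0.00983), UME6 (-0.55, adjusted p 0.0196) and RIM15 (0.34, adjusted p 0.044). None of them was called with all libraries and without the block. The library was picked out by its member values, so these fits only describe its weight.

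RIM15 encodes a nutrient-sensing kinase that acts when TORC1 and protein kinase A signals fall. No strain was called for it between IAA and DMSO by limma, its lowest unadjusted p being 0.0203 in POP2, where it had 119, 159 and 133 CPM with IAA and 161, 179 and 155 CPM with DMSO. With the block it was higher with IAA in LSM1 (0.23, adjusted p 0.0271) and RAT1 (0.25, adjusted p 0.0216; 0.146 without the RAT1 libraries with copper genes apart). XRN1 was called lower with the block only without the libraries with copper genes apart (-0.27, limma adjusted p 0.0432). The signs thus differ between strains, with 7 of 11 positive.

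IME2, the meiotic kinase gene that Ime1 switches on, fell with IAA in 4 strains by test, and its difference was negative in all 11. POP2 had 892, 337 and 481 CPM with IAA, against 1809, 1284 and 1564 CPM with DMSO (log2 difference -1.56, SE 0.27, limma adjusted p 1.21e-05). LSM1 had 1035, 509 and 391 CPM with IAA, against 961, 2042 and 1350 CPM with DMSO (-1.23, SE 0.27, adjusted p 0.001). PAB1 had 3439, 1563 and 2935 CPM with IAA, against 5864, 4580 and 6657 CPM with DMSO (-1.18, SE 0.32, adjusted p 0.00556). The groups were apart in POP2 and PAB1, while in LSM1 the first library of each treatment breaks the order; without LSM1 IAA replicate 1 the difference was -1.61 (adjusted p 1.04e-05). The call in PAB1 was lost without PAB1 IAA replicate 2 (0.113), and those of PAB1 and LSM1 were lost with only the groups compared (0.101 and 0.302).

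CAF40 had 1356, 1314 and 909 CPM of IME2 with IAA, against 2044, 2644 and 2334 CPM with DMSO (-0.99, SE 0.30, limma adjusted p 0.0312). That call was lost without CAF40 IAA replicate 2 or 3 or CAF40 DMSO replicate 2 or 3 (0.0632 to 0.197) and with only those groups fitted (0.108). WT itself had 1796, 1802 and 2386 CPM with IAA, against 2986, 3001 and 3002 CPM with DMSO, again apart, at -0.60 (adjusted p 0.323). XRN1, at -0.80 (adjusted p 0.0991), was called with the block (-0.83, adjusted p 0.0298). In 32 of 33 same-numbered pairs the IAA library held less IME2, counting those of WT, CAF40 and POP2, whose numbers were not taken to pair the libraries.

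**Figure D2:**
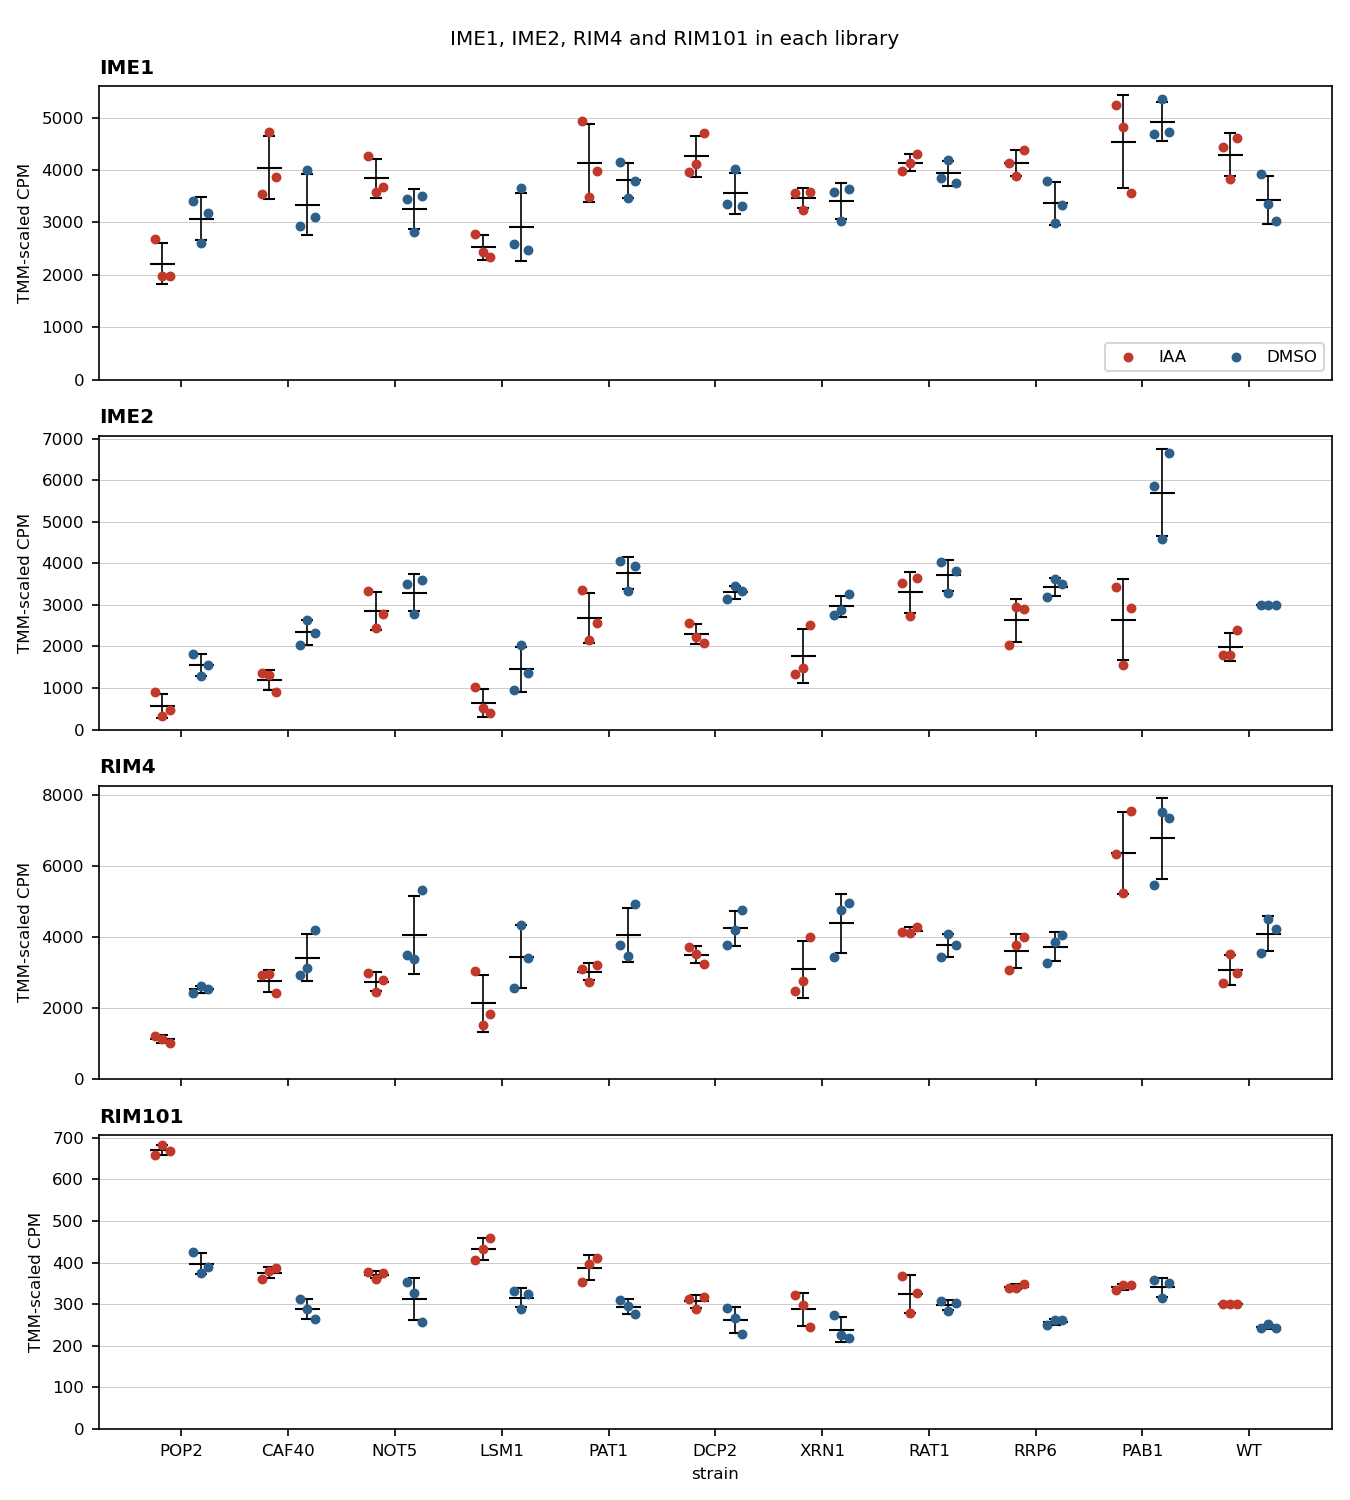
TMM-scaled CPM of IME1, IME2, RIM4 and RIM101 in every library (points), with IAA left of DMSO for each strain and bars for the mean and SD of 3 libraries. IME2 lies lower and RIM101 higher with IAA in most strains, RIM4 is lowest in POP2 with IAA, at a mean of 1130 CPM, and PAB1 holds most RIM4 in both treatments and, with DMSO, most IME2.

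RIM4, whose product forms amyloid-like assemblies that silence mRNAs such as CLB3, fell in POP2 to 1232, 1141 and 1018 CPM with IAA, against 2436, 2630 and 2544 CPM with DMSO. The log2 difference was -1.17 (SE 0.19, limma adjusted p 2.25e-06), and the next group up, LSM1 with IAA at 2138 ± 800 CPM (SD, n = 3), did not overlap POP2 with IAA at 1130 ± 107 CPM. LSM1 had 3045, 1533 and 1837 CPM with IAA and 2586, 4362 and 3425 CPM with DMSO, overlapping, at -0.73 (SE 0.20, adjusted p 0.00665). The LSM1 call was lost without LSM1 IAA replicate 2 or 3 or LSM1 DMSO replicate 2 (0.0508 to 0.0927) and with only those groups fitted (0.436), and without IAA replicate 1 the difference was -0.99. Of the 11 strains, RAT1 alone had a positive difference, 0.15 (adjusted p 0.691).

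SUM1, the repressor of middle genes, was called in POP2 alone of the 11 strains by limma. POP2 had 85, 78.4 and 67.7 CPM with IAA, against 146, 149 and 133 CPM with DMSO (log2 difference -0.89, SE 0.11, adjusted p 8.54e-09). No other group came down to that level, the next being NOT5 with IAA at 136 ± 8.53 CPM (SD, n = 3). With the block, SUM1 was lower with IAA in NOT5 (-0.20, adjusted p 0.0421) and LSM1 (-0.19, adjusted p 0.0382) and higher in RAT1 (0.25, adjusted p 0.00847; 0.0547 without the libraries with copper genes apart) and PAB1 (0.22, adjusted p 0.0204). With total-count scaling the PAB1 difference was 0.01.

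NDT80, the commitment factor, had less mRNA with IAA in 32 of 33 same-numbered pairs, the exception being PAB1 replicate 1. The pairs of WT, CAF40 and POP2 may share a number only, since the numbers were not taken to pair the libraries there. Without the block limma called no strain, at an adjusted p of 0.303 or more and an unadjusted p of 0.0878 or more. XRN1 had 33.8, 75.4 and 163 CPM with IAA, against 153, 146 and 246 CPM with DMSO (log2 difference -1.23, SE 0.71, adjusted p 0.303). RAT1 had 346, 50.8 and 279 CPM with IAA and 594, 96.9 and 362 CPM with DMSO (-0.67, SE 0.74, adjusted p 0.604). In RAT1, replicate 2 is lowest in both treatments, so each pair falls while the groups overlap.

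With the replicate block, NDT80 was called lower with IAA in 5 strains whose numbers pair the libraries: XRN1 (-1.27, limma adjusted p 1.63e-04), RAT1 (-0.71, 0.0119), LSM1 (-0.93, 0.0122), DCP2 (-0.75, 0.0175) and RRP6 (-0.65, 0.0318). The block also called NDT80 lower in WT, CAF40 and POP2, whose numbers were not taken to pair the libraries, so 8 of 11 strains were called. The pairing is weaker in RRP6, where 4 of 6 libraries correlated best with the library of their own number. Without the libraries with copper genes apart, the RAT1 call was lost (-0.37, adjusted p 0.601, with 1 pair left) and the XRN1 call held (-1.57, adjusted p 8.62e-05, with 2 pairs left). NOT5 (-0.31, adjusted p 0.273), PAT1 (-0.55, adjusted p 0.127) and PAB1 (-0.04, adjusted p 0.912) were not called with it. WT had 49.6, 43.5 and 108 CPM with IAA, against 96, 92 and 139 CPM with DMSO (-0.80, limma adjusted p 0.619 without the block). With the block WT was called lower too, so the same sign and a blocked call are seen where no factor is tagged. PAB1 had 1012, 113 and 734 CPM with IAA and 796, 134 and 737 CPM with DMSO, the highest group means of the study.

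**Figure D3:**
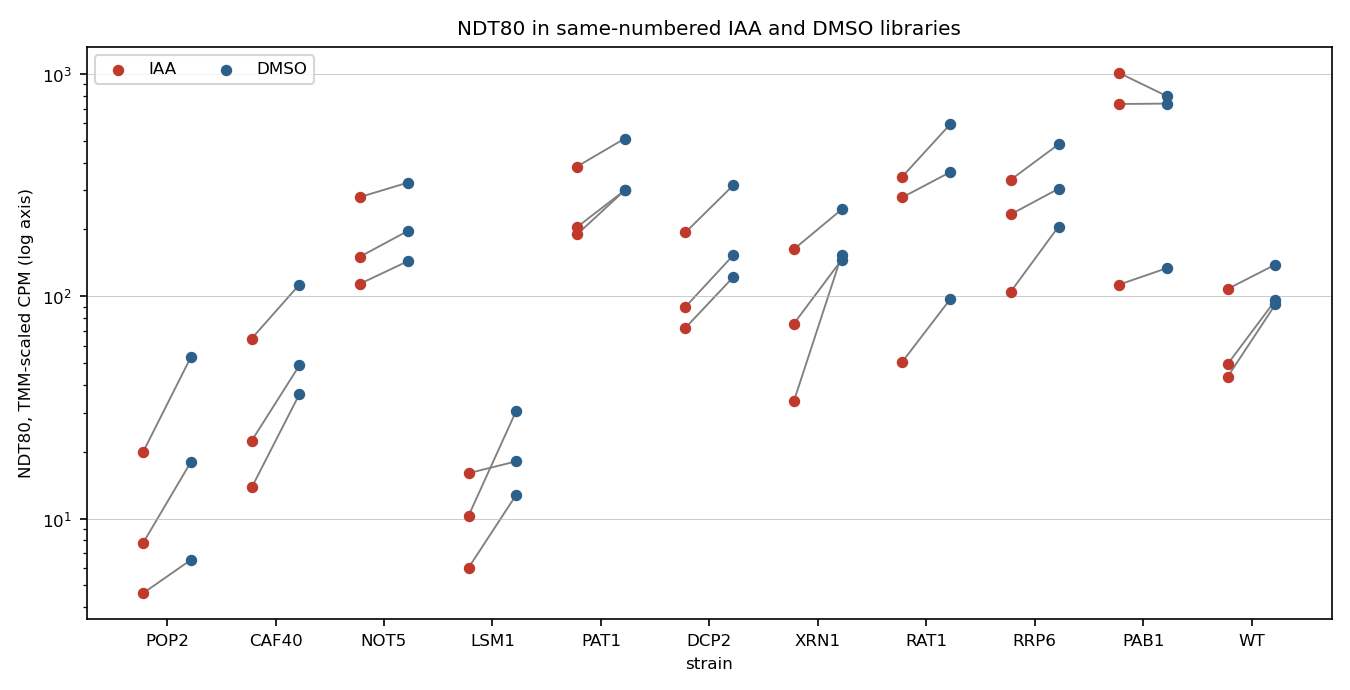
NDT80 in TMM-scaled CPM on a log axis, with IAA left of DMSO in each strain and a line joining libraries of the same replicate number. The IAA library is the lower one in 32 of 33 pairs, while the 3 lines of a strain such as RAT1 or PAB1 start at very different heights. In WT, CAF40 and POP2 the lines follow numbers that were not taken to pair the libraries.

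Within groups, NDT80 moved with the genes it activates. Over the 66 libraries, deviations from the group mean on the log2 scale correlated with those of 20 summed middle genes at r = 0.86 and with IME2 at r = 0.71, but at 0.16 with RIM4, 0.09 with IME1 and 0.08 with UME6. These points share libraries and depth, and the values are descriptions. The middle genes summed to 13391, 3170 and 8867 CPM in PAB1 with IAA and to 16391, 4039 and 14297 CPM in PAB1 with DMSO. PAB1 replicate 2 is thus low in both measures and both treatments.

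**Figure D4:**
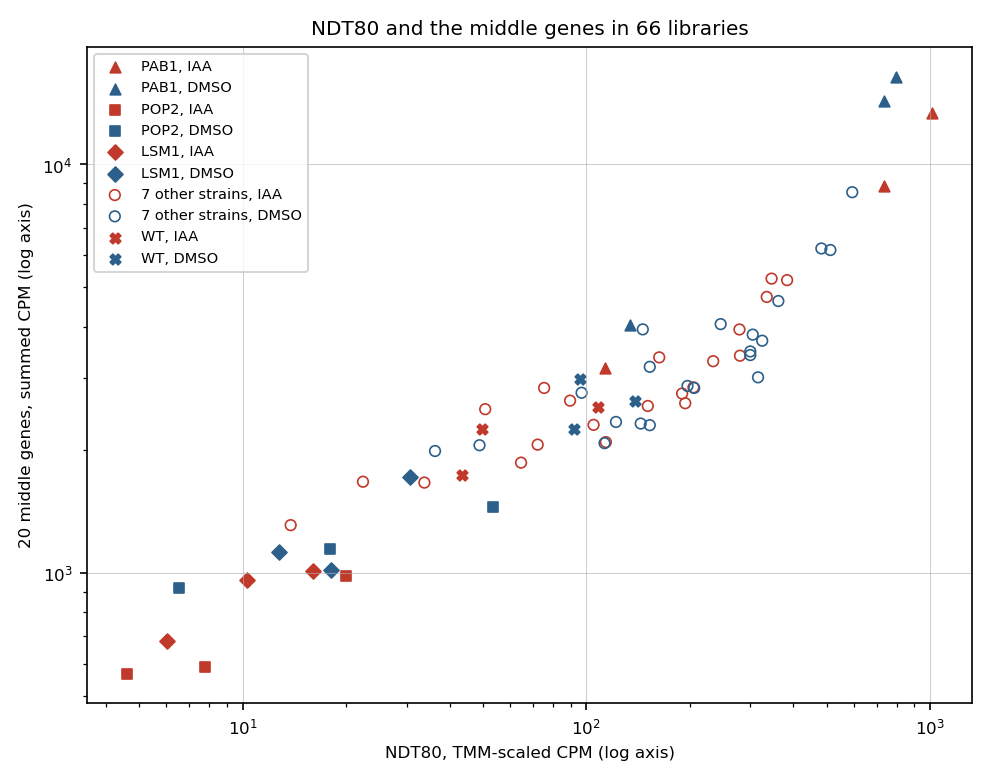
Summed CPM of 20 middle genes against NDT80 in CPM for 66 libraries, both on log axes, with red for IAA and blue for DMSO. POP2 and LSM1 libraries sit at the low end, and 4 of the 6 PAB1 libraries form the high end with at least 734 CPM of NDT80.

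The change in each targeted strain was set against that of WT by an interaction term. It was called for 3 of 100 member values, all in POP2, where 9.69% of genes were called. IME1 changed by -0.80 more than in WT (SE 0.22, limma adjusted p 0.0114), SUM1 by -0.80 (SE 0.15, adjusted p 3.89e-04) and RIM101 by 0.46 (SE 0.15, adjusted p 0.0361). Without WT IAA replicate 3 or POP2 IAA replicate 3 the IME1 call was lost (0.058 and 0.0592). That of RIM101 was lost without any of 7 libraries (WT IAA 1 or 2, WT DMSO 2 or 3, POP2 IAA 2, POP2 DMSO 2 or 3; 0.0558 to 0.0893) and with total-count scaling (0.083). For IME2 the POP2 interaction was -0.96 (SE 0.41, adjusted p 0.141), passing without POP2 IAA replicate 1 (-1.32, adjusted p 0.0195), and for RIM4 it was -0.76 (SE 0.27, adjusted p 0.069). NDT80 had -0.21 (SE 1.21, adjusted p 0.955) there, so its precision was poor. No member was called beyond WT in the other 9 strains by limma. With total-count scaling PAB1 was called for IME1 (-0.66, adjusted p 0.0494) and RIM101 (-0.50, adjusted p 0.0375). Of the 90 values there, 4 had an unadjusted p under 0.05: 2 in PAB1 and 1 each in LSM1 and RAT1. Genes called in those strains made up 6.88% in RAT1, 1.37% in PAB1, 0.48% in LSM1, 0.326% in NOT5, 0.0515% in PAT1 and 0.0172% in RRP6, and 0% in CAF40, DCP2 and XRN1.

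The strains also differed without IAA, in the DMSO libraries of the same 4 h. DMSO libraries of POP2, LSM1 and PAB1, set against WT in DMSO, had 7, 3 and 8 of 10 members called, where 24.8%, 30.2% and 45.3% of genes were called. The other 7 strains had none by limma, with 0.824% of genes called in RRP6, 0.755% in RAT1, 0.172% in NOT5, 0.103% in DCP2 and 0.0515% each in CAF40, PAT1 and XRN1. At an unadjusted p under 0.05 they had 8 member values. All 10 comparisons share the WT DMSO libraries, so their values stand side by side and are not independent of one another.

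**Figure D5:**
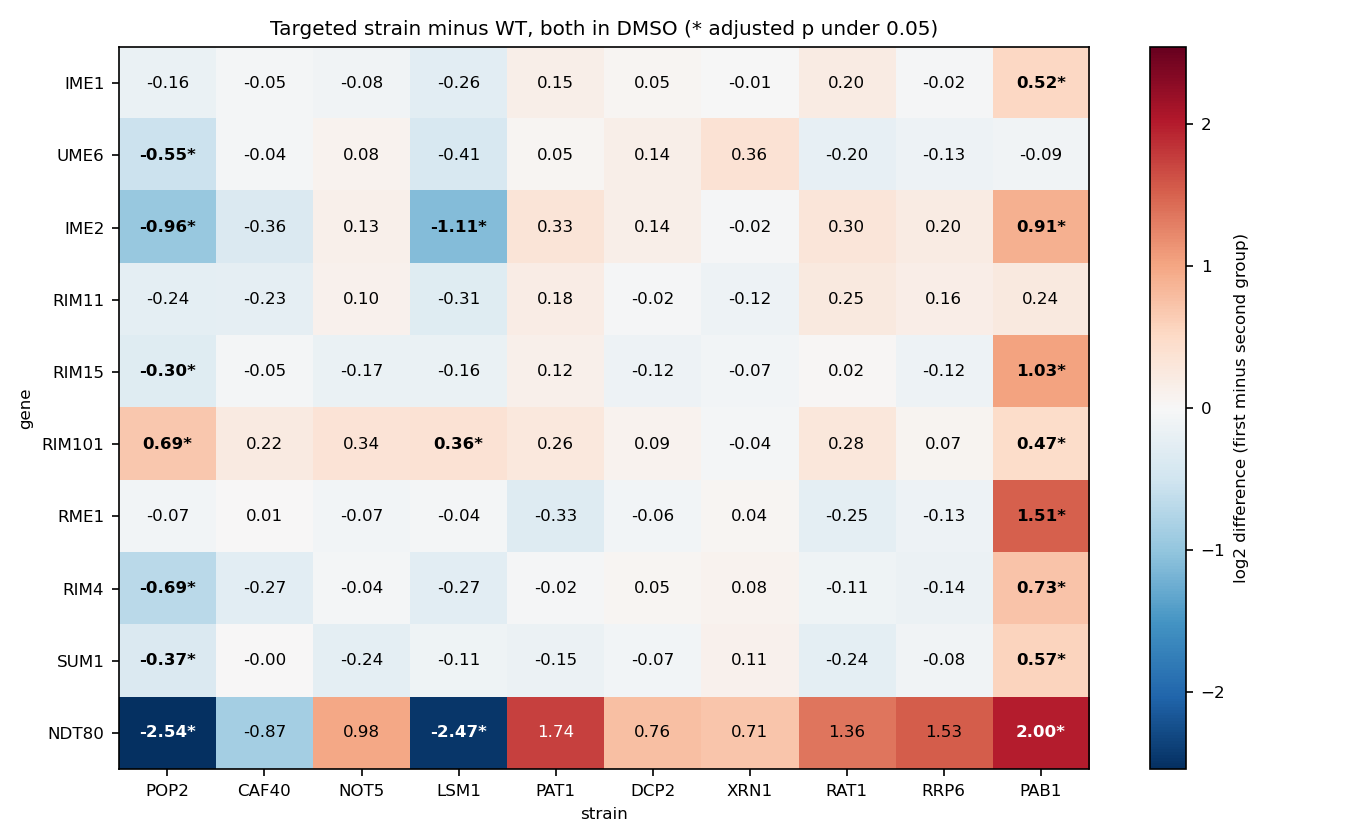
Log2 difference of each targeted strain minus WT, both in DMSO, for the 10 genes in rows and 10 strains in columns, with stars at adjusted p under 0.05 by limma. NDT80 has the widest spread, from -2.54 in POP2 to 2.00 in PAB1, and all 18 stars lie in the POP2, LSM1 and PAB1 columns.

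POP2 and LSM1 in DMSO stood low for the kinase IME2 and for NDT80. IME2 had 1809, 1284 and 1564 CPM in POP2 and 961, 2042 and 1350 CPM in LSM1, against 2986, 3001 and 3002 CPM in WT. The log2 differences were -0.96 (SE 0.31, limma adjusted p 0.0173) and -1.11 (SE 0.30, adjusted p 0.00442). NDT80 had 53.4, 6.52 and 18 CPM in POP2 and 18.1, 30.6 and 12.8 CPM in LSM1, against 96, 92 and 139 CPM in WT. Neither strain overlapped WT, at -2.54 (SE 0.79, adjusted p 0.0141) and -2.47 (SE 0.78, adjusted p 0.0137). The POP2 calls were lost without POP2 DMSO replicate 2 (IME2 0.0883, NDT80 -1.80 and 0.119) or, for NDT80, WT DMSO replicate 3 (0.0511). The LSM1 calls were lost without LSM1 DMSO replicate 1 (0.0677 and 0.0566) or, for NDT80, replicate 3 (0.061).

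RIM101 again went the other way, with 425, 376 and 390 CPM in POP2 and 331, 289 and 325 CPM in LSM1, against 242, 252 and 243 CPM in WT. Its log2 differences were 0.69 (SE 0.10, limma adjusted p 1.82e-06) and 0.36 (SE 0.10, adjusted p 0.0048; 0.0621 with only those groups fitted). POP2 was also lower in RIM4, at 2537 ± 97.2 CPM against 4105 ± 502 CPM in WT (SD, n = 3 each; -0.69, adjusted p 0.00943; 0.0526 without WT DMSO replicate 2). UME6 stood at 243 ± 13.8 CPM in POP2, against 357 ± 19.3 CPM in WT (-0.55, adjusted p 0.027), a call lost without any of WT DMSO replicates 1 to 3 or POP2 DMSO replicates 2 and 3 (0.0518 to 0.0895). SUM1 stood at 142 ± 8.6 CPM in POP2, against 186 ± 24.4 CPM in WT (-0.37, adjusted p 0.00789; 0.0998 without WT DMSO replicate 2 and 0.0549 without POP2 DMSO replicate 3). RIM15, at 165 ± 12.8 CPM in POP2 and 204 ± 6.71 CPM in WT, was called with an adjusted p of 0.0476 (-0.30). That was lost in 33 of 66 fits that left out 1 library, among them all 3 WT DMSO replicates and POP2 DMSO replicates 1 and 3 (0.0803 to 0.171). In LSM1 the block added UME6 (-0.41, limma adjusted p 0.0408) and RIM11 (-0.31, adjusted p 0.0167). Same-numbered DMSO libraries of LSM1 and WT deviated together at r of 0.251, 0.142 and 0.321. The block there was a replicate term shared by all strains in DMSO. No label links numbers across strains, so these calls do not rest on a known pairing.

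PAB1 in DMSO stood above WT in 8 members, from the rare RME1 to the abundant RIM4. RME1 had 30.4, 56.6 and 31 CPM in PAB1, against 15.1, 13.2 and 11.8 CPM in WT (log2 difference 1.51, SE 0.23, limma adjusted p 7.55e-07). RIM15 had 379, 365 and 509 CPM in PAB1, against 201, 198 and 211 CPM in WT (1.03, SE 0.12, adjusted p 4.74e-09). These 2 were the members whose call held with total-count scaling, at 1.11 and 0.63. With that scaling the median of all genes was -0.45 on the log2 scale (-0.06 with TMM). Under it RIM11 turned to -0.16 (0.24 with TMM) and UME6 was called lower (-0.49, adjusted p 0.0241).

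The other PAB1 calls against WT in DMSO were lost with total-count scaling and held with median-of-ratios scaling. NDT80 had 796, 134 and 737 CPM in PAB1, against 96, 92 and 139 CPM in WT (log2 difference 2.00, SE 0.74, limma adjusted p 0.024). PAB1 replicate 2 lies inside the WT range and the other 2 far above it; without it the difference was 2.82 (adjusted p 0.00755). The NDT80 call was lost without PAB1 DMSO replicate 1 or 3 or WT DMSO replicate 1 or 2 (0.0539 to 0.132), with only those groups fitted (0.0531) and with total counts (1.61, adjusted p 0.0599). In DMSO, NDT80 also averaged 371 CPM in PAT1, 351 in RAT1, 332 in RRP6, 222 in NOT5, 197 in DCP2 and 182 in XRN1, without a call. WT averaged 109 CPM and CAF40 66.1 CPM. IME2 had 5864, 4580 and 6657 CPM in PAB1, against 2986, 3001 and 3002 CPM in WT (0.91, adjusted p 0.0207), lost without PAB1 DMSO replicate 1 or 3 (0.0513 and 0.103). The differences were 0.52 for IME1 (adjusted p 0.00563), 0.73 for RIM4 (adjusted p 0.00449), 0.57 for SUM1 (adjusted p 4.75e-05) and 0.47 for RIM101 (adjusted p 1.02e-04). With total counts these and IME2 fell to between 0.07 and 0.51 and were not called, at adjusted p of 0.18 to 0.588.

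Markers of other states were counted as well. In PAB1 against WT, both in DMSO, 22.3% of all genes were called higher and 23% lower. The haploid genes summed to 302 to 310 CPM in PAB1, against 198 to 210 CPM in WT, with 5 of 13 tested called higher and 2 lower. Single genes were less even than that sum. STE18, called higher, had 24, 4.92 and 19.6 CPM in PAB1. MFA1 was called lower (-1.83, limma adjusted p 0.026), at 0.279, 0 and 0.363 CPM in PAB1. Of 10 genes of growing cells, 4 were called higher and 1 lower there. Most of their sum was HXT2, a glucose transporter gene, at 2076 ± 863 CPM in PAB1 with DMSO and 1248 ± 242 CPM in WT with DMSO (SD, n = 3 each). The other 9, the G1 cyclins among them, summed to 296 to 452 CPM in PAB1 and 231 to 311 CPM in WT. After IAA, 5 of the 10 were called lower in POP2, against 19.5% of all genes, and 6 in LSM1, against 10.4%. HXT2 averaged 150 ± 12.9 CPM in POP2 with IAA, against 499 ± 114 CPM with DMSO, and the other 9 summed to 141 to 147 CPM with IAA, against 181 to 228 CPM with DMSO. In LSM1, HXT2 averaged 237 ± 94.3 CPM with IAA, against 1110 ± 446 CPM with DMSO, and the other 9 summed to 192 to 217 CPM with IAA, against 262 to 296 CPM with DMSO. Their part in the member results was not tested.

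The targets of the members were counted as lists. Of 21 early genes that Ume6 controls, such as those for recombination and synapsis, 20 were lower with IAA in POP2 (median log2 difference -1.14, against -0.06 over all genes), 19 in LSM1 (-1.06) and 11 in PAB1 (-0.71; 18 with total counts and 17 with the block). Among all genes, 19.5% were lower and 16.7% higher in POP2, 10.4% lower and 8.13% higher in LSM1, and 14% lower and 8.15% higher in PAB1. With only the groups compared, 15 were lower in POP2, 4 in PAB1 and none in LSM1. CAF40 and XRN1 had 2 lower each, RAT1 had 3, and the remaining strains had none by limma. WT, with no tagged factor, had none called and a median of -0.41. Beyond WT, 4 of the 21 were called lower in POP2 (median -0.65) and none in LSM1 or PAB1. REC114 stood at 42.2 ± 18 CPM in POP2 with IAA, against 134 ± 36.4 CPM with DMSO (SD, n = 3 each; log2 difference -1.70, limma adjusted p 3.15e-06). In DMSO against WT, 19 were lower in POP2 and 21 in LSM1, while PAB1 had 4 higher and 1 lower. All genes split there into 11.9% higher and 12.9% lower in POP2, 15.6% and 14.6% in LSM1, and 22.3% and 23% in PAB1. With total counts PAB1 had none higher and 4 lower, so the direction there turned with scaling.

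Of 20 middle genes under Ndt80, 17 were higher in PAB1 than in WT, both in DMSO (median 2.68; 13 with total counts and 6 with only those groups fitted). SPS2, a sporulation wall gene, averaged 1247 ± 1012 CPM in PAB1, against 68.7 ± 51 CPM in WT (SD, n = 3 each; 3.78, limma adjusted p 0.0238). POP2 and LSM1 in DMSO had 4 lower each (16 and 12 with only the groups compared, 10 and 6 without voom weights). No middle gene was called against WT in PAT1 (median 1.35), RAT1 (1.34), RRP6 (1.15), XRN1 (0.74), NOT5 (0.31), DCP2 (0.11) or CAF40 (-0.56). After IAA, 4 fell in POP2 and 3 in LSM1 (6 lower and 2 higher with the block; none with only those groups), shares of 20 genes near the 19.5% and 10.4% of all genes that were lower there. PAB1 had 1 higher and 1 lower with IAA, against 1 higher and 11 lower with the block. MPC54, a spindle pole body gene of the meiotic outer plaque, stood at 50.9 ± 20.9 CPM in POP2 with IAA, against 158 ± 28.9 CPM with DMSO (-1.68, adjusted p 1.45e-07).

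In POP2 with IAA, where 36.2% of all genes were called, the lists around the members were mostly near that share or below it. Of the 6 genes of the Rim101 processing pathway, 2 fell in POP2 with IAA (DFG16 at -0.69, limma adjusted p 7.86e-04, and RIM21 at -0.39, adjusted p 0.0385), while RIM101 itself rose. Of 15 regulators upstream of IME1, POP2 had 1 higher and 2 lower with IAA, the G1 transcription factor gene SWI4 at -1.37 (adjusted p 1.64e-08). Of 9 partners of the kinases, POP2 had 1 higher and 1 lower and LSM1 had 2 lower (18.5% of all genes called). IGO2, the gene of an endosulfine that Rim15 phosphorylates, was lower with IAA in 8 strains, WT included, at -1.41 in LSM1 (adjusted p 3.25e-05) and -0.83 in WT (adjusted p 0.0372), and no kinase partner was called beyond WT in LSM1. Of 9 corepressor genes, POP2 had 2 higher and 1 lower. NOT5 had 3 of 9 higher, where 10.2% of all genes were called, and RFM1, a subunit of the Sum1 complex, stood at 87.9 ± 10.4 CPM with IAA, against 56.9 ± 7.77 CPM with DMSO (SD, n = 3 each; 0.63, adjusted p 8.35e-05; beyond WT 0.74, adjusted p 0.0149). Of 4 genes that act with Ndt80 at commitment, all 4 fell in POP2 and in LSM1 with IAA, AMA1 by -1.17 (adjusted p 6.70e-06) and -0.88 (adjusted p 0.00119), and AMA1 is also among the middle genes.

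For each member the gene most like it was taken by Pearson correlation over 22 group means of log2 CPM, as a description over groups that share strains. NDT80 ran most like SPO23 (r = 0.991), RIM15 like SEC16 (0.975) and IME2 like RED1 (0.970), a gene of the meiotic chromosome axis. The others were YGR111W for RIM11 (0.955), MNE1 for RIM4 (0.949), NST1 for SUM1 (0.948), DAL80 for RIM101 (0.926), YDL109C for UME6 (0.923), YOR055W for RME1 (0.911) and AUS1 for IME1 (0.902). By Spearman correlation, which uses ranks, the values were lowest for SUM1 with NST1 (0.621), RME1 with YOR055W (0.722) and UME6 with YDL109C (0.757). For the other members they were 0.870 to 0.979. The high Pearson values of SUM1, RME1 and UME6 therefore do not show an equally close likeness in the order of the groups. YOR055W averaged 0.124 CPM in POP2 with IAA, 9.87 CPM in PAB1 with DMSO and 0.458 CPM in WT with DMSO. SPO23 averaged 11.9 CPM in POP2 with IAA, 408 CPM in PAB1 with DMSO and 117 CPM in WT with DMSO. Among the members, IME2 and NDT80 correlated at 0.92, IME2 and RIM11 at 0.91, and SUM1 and RIM4 at 0.91. RIM101 was negative with all 9 others, from -0.12 with RIM15 to -0.79 with UME6.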

How the data were processed

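Poly(A) RNA-seq libraries (NEBNext directional kit, paired-end, per the labels' protocols) were counted by the authors. The submitters' processing notes name STAR 2.7.10a, RSEM 1.3.1 and DESeq2 1.48.1 with no roles; the counting build and strand setting are not given in the sources used here. The deposited columns hold 72 lines of principal component scores above whole-number read counts per gene, so their unit, taken whole, is other than counts; the score lines were not used. Another 6 columns match no sample and were not used. Of the gene lines, 91.2% had a RefSeq locus. Replicates differed by more than counting noise (chi-square per degree of freedom 20.9 to 1120).

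In R 4.3.3, genes with 0.484 CPM in at least 3 libraries and 15 counts in all were kept (5828; 343 removed). TMM-scaled log2 CPM (pseudocount 0.5 counts, trims 0.3 and 0.05) were fitted by limma 3.58.1 with voom weights, 1 mean per group over 66 libraries, and p-values adjusted by Benjamini-Hochberg over all genes in each of 31 comparisons. CPM values carry this scaling and SDs over 3 libraries; floors of 3 counts cover counting error only. On simulated counts, 163 of 200 changed genes among 5738 were called, with 9 false calls. There the changed genes, taken above a count limit, all had the same size of change, in a single group, with the same dispersion for every gene. That recovery does not give the power for members with smaller changes or wider spread, such as NDT80. The alternatives were median-of-ratios and total-count scaling, no low-count filter, a mean of at least 10 counts, no voom weights, only the groups compared, the replicate block, and 66 fits leaving out 1 library each. Leaving out DMSO libraries with CUP1-1 over 20 CPM, with and without the block, was chosen after seeing the data.

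Same-numbered IAA and DMSO libraries deviated together, with r over 0.1 in all 3 pairs, in NOT5, DCP2, LSM1, PAB1, PAT1, RAT1, RRP6 and XRN1 (33 pairs in all 11 strains: median 0.38, range -0.159 to 0.696). Against WT in DMSO this held for LSM1 alone. The pairing comes from the data, since the labels give only numbers, and blocked values are printed for these strains where they change a call.

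The text names all 10 members, for each the gene with the highest correlation, and of each list at most the 2 called genes with the largest change. Members and lists were chosen with earlier results of these data known. Python 3.11.15 drew the figures.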

Additional observations from a re-analysis of the deposited data

Results flagged for a closer look

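Between strains, 3 member changes with IAA differed from those of WT by the interaction test, all in POP2. IME1 changed by -0.80 on the log2 scale beyond WT, with 2215 ± 399 CPM with IAA against 3068 ± 407 CPM with DMSO in POP2, and 4287 ± 409 CPM with IAA against 3433 ± 455 CPM with DMSO in WT (SD, n = 3 each). The IME1 groups overlap in both strains. SUM1 changed by -0.80 beyond WT, with 77 ± 8.73 CPM with IAA against 142 ± 8.6 CPM with DMSO in POP2, and 175 ± 25.9 CPM with IAA against 186 ± 24.4 CPM with DMSO in WT. RIM101 changed by 0.46 beyond WT, and its IAA libraries lay above its DMSO libraries in both strains.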

How the results depend on the processing

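No called member changed sign under any alternative. Of 15 calls between IAA and DMSO, 7 were left with only the groups compared (6 shared) and 41 with the replicate block (all 15 shared; 38 when the 3 DMSO libraries with CUP1-1 over 20 CPM were also left out, a choice made after seeing the data); of 3 beyond WT, the replicate block gave 7 (all 3 shared). Leaving out 1 library gave 13 to 22 calls between IAA and DMSO, 2 to 4 beyond WT and 13 to 20 (main count 18) between DMSO and WT DMSO; between IAA and DMSO, 22 came without LSM1 IAA replicate 1 and 13 without CAF40 IAA replicate 2 or 3 or CAF40 DMSO replicate 3. NDT80 in PAB1 between IAA and DMSO, -0.01, was 0.015 with median-of-ratios scaling and with only the groups compared, 0.046 with the filter on a mean of 10 counts and 0.031 without voom weights, and ran from -0.82 to 1.03 without 1 library; in NOT5 it ran from -0.68 to 0.01 and in RAT1 from -1.45 to 0.16. Total-count scaling turned RIM101 in PAB1 between IAA and DMSO to -0.208 and RIM11 in PAB1 against WT to -0.163; without 1 library the first ran from -0.033 to 0.055 and UME6 in PAB1 against WT from -0.29 to 0.11. RIM15 in POP2 against WT was not called with either other scaling, either other filter or without voom weights (-0.304 to -0.263; adjusted p 0.0538 to 0.107). The causes were not tested. In WT, CAF40 and POP2 the numbers were not taken to pair the libraries, since r was not over 0.1 in all 3 pairs. It was 0.311, 0.527 and -0.159 in WT, 0.406, 0.326 and 0.01 in CAF40, and 0.39, 0.194 and 0.011 in POP2. Whether the libraries are paired there is unknown. In these strains 3, 3 and 4 of 6 libraries correlated best with their own number. RRP6, which met the rule on r, also had 4 of 6. In WT, CAF40 and POP2 the block called NDT80 lower with IAA (-0.79, -1.06 and -1.20, with limma adjusted p of 0.00902, 0.00141 and 0.00112). Beyond WT it added IME2, RIM15 and RIM4 in POP2 and SUM1 in RAT1. Most of these added calls were lost without the 3 DMSO libraries with CUP1-1 over 20 CPM, while the 3 main calls held. SUM1 in RAT1 was then 0.46, with 1 RAT1 DMSO library left. Between IAA and DMSO, the block also called RIM101 in WT (0.29, limma adjusted p 0.0262), SUM1 and RIM15 in CAF40, and UME6 and RIM15 in POP2. The lowest library counts were 97 for NDT80 and 117 for RME1.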
